A study of Homo sapiens with 6 samples.

Results

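The transcripts of 10 receptor tyrosine kinases were followed in xenograft tumours of a pancreatic cancer cell line: the FGF receptors FGFR1, FGFR2, FGFR3 and FGFR4, and MET, AXL, EPHA2, IGF1R, INSR and MST1R. They were chosen by symbol from a count table of 57773 genes, with the difference between the groups in these same tumours already known, and all 10 were found and passed the filter on low counts. The fold changes and adjusted p-values of the 10 receptors below are therefore a description of where each gene stood in the fit over all genes, and nothing is supported with them. The tumours grew under the skin of nude mice, which lack T cells but keep their other cells, from PATU cells, a line of human pancreatic ductal adenocarcinoma, with a hairpin RNA that doxycycline switches on and that targets ME3, a malic enzyme of mitochondria. The hosts of 2 on-dox tumours received doxycycline, and 4 off-dox tumours carried the same construct without it. The labels name no control hairpin, and thus the drug, the induced hairpin and any loss of ME3 cannot be told apart. The dose and duration of doxycycline are not given in the labels. All tumours come from 1 cell line, and the labels name separate tumours without saying how mice or cell pools were shared, so the p-values measure only the spread between these tumours, which may be technical in part.

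Receptor tyrosine kinases are membrane proteins most of which pair up when they bind a growth factor outside the cell and then phosphorylate each other and their adaptors inside it, which switches on the RAS-ERK, PI3K-AKT and phospholipase C pathways. FGF receptors bind fibroblast growth factors together with heparan sulfate chains and signal through the adaptor FRS2. MET is the receptor of hepatocyte growth factor, MST1R (also called RON) of macrophage-stimulating protein, AXL of GAS6, EPHA2 of membrane-bound ephrin-A ligands, and IGF1R and INSR of the insulin-like growth factors and insulin. In pancreatic ductal carcinoma, MET, AXL, EPHA2 and IGF1R have been studied as receptors that carry growth and invasion signals.

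Library totals were 23855338 to 26885699 counts. The targeted gene ME3 was at 33.3 and 28.5 CPM (CPM, counts relative to the library total, with totals adjusted by the TMM method) in on-dox tumours 1 and 2, against 37.9 to 44.2 CPM in the off-dox tumours. Its log2 fold change was -0.41 (SE 0.12), with an adjusted p of 0.148 by edgeR's quasi-likelihood test over all genes and p = 0.0667 by a two-sided exact permutation test, the smallest that 2 against 4 tumours allow. On-dox tumour 1 stood apart from the other tumours: mitochondrial genome mRNAs took 0.529% of its counts, against 0.26% in on-dox tumour 2 and 0.222% to 0.276% in off-dox tumours, and MALAT1 plus NEAT1, long RNAs that stay in the nucleus, made up 4.08%, against 1.77% in on-dox tumour 2 and 1.48% to 2.33% in off-dox tumours. Of 7 markers of carcinoma epithelium, EPCAM, KRT8, KRT18 and CDH1 were detected in every tumour, whereas the ductal keratin KRT7 averaged 0.814 CPM on dox and 0.87 CPM off dox, and KRT19 had a mean of 0.0194 CPM on dox and 0 CPM off dox. The summed level of the 7 markers was 1128 and 1293 CPM in on-dox tumours, below the 1381 to 1620 CPM of the off-dox tumours. Of the 6 tested, 3 had a log2 fold change above 0 and 3 below, and none was called by edgeR (1 higher and 1 lower at an unadjusted p under 0.05). The part of this shift in the receptor levels below was not tested. Host cells lie within these tumours and reads of mouse origin can be part of the counts. In such bulk samples, fewer cells of a type and less RNA per cell cannot be told apart.

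FGFR1 was the one receptor of the 10 past the threshold (edgeR's quasi-likelihood test, adjusted p under 0.05), and it was lower on dox. Over all 21308 tested genes, 0.591% were called lower and 0.465% higher. None of the 10 was called higher by edgeR. An unadjusted p under 0.05 was reached by 2 with a higher level (IGF1R and INSR) and 3 with a lower level (FGFR1, AXL and FGFR4). The exact share of all tested genes at that cut is not given. Counts at that cut, here and elsewhere, are therefore a description only. By p, AXL (unadjusted p = 0.0026 by edgeR) had rank 555 and FGFR4 (0.0145) rank 1453 among the 21308 tested genes. FGFR2 (unadjusted p = 0.082 by edgeR) had rank 4141. The number of all tested genes with an unadjusted p under 0.05 thus lies between the ranks of FGFR4 and FGFR2. DESeq2 called 1 of the 10 higher and 2 lower, and limma voom 0 higher and 1 lower. Over all tested genes, DESeq2 called 303 higher and 416 lower, and limma voom 94 higher and 90 lower. For 4 of the 10 receptors (FGFR1, FGFR3, FGFR4 and AXL) the highest on-dox value was below the lowest off-dox value, where 11.5% of all tested genes did so. For 2 of the 10 (IGF1R and INSR) the lowest on-dox value was above the highest off-dox value, where 11.5% of all tested genes did so. The median log2 fold change of the 10 was -0.22, beside -0.0031 for all tested genes.

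FGFR1 (ENSG00000077782), on chromosome 8, encodes the FGF receptor best known from mesenchymal cells and from carcinomas that have lost epithelial features. It was at 78.9 and 77.1 CPM in on-dox tumours 1 and 2, against 164.5, 134.4, 132.8 and 146.8 CPM in off-dox tumours 1 to 4. The groups were far apart, and the on-dox tumours were nearly equal. The log2 fold change was -0.89 (SE 0.11, 95% interval -1.13 to -0.65; adjusted p = 0.0069 by edgeR's quasi-likelihood test). Leaving out any 1 tumour gave -0.93 to -0.82, called each time.

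Fibroblasts of the host also express FGFR1, and collagen transcripts differed widely between tumours. The summed level of 11 fibroblast markers was 136.0 and 327 CPM in on-dox tumours 1 and 2, and 812, 271, 301 and 152 CPM in off-dox tumours 1 to 4. COL1A1 led that list at 56.2 and 132.5 CPM on dox and 51.5 to 352 CPM off dox, DCN was at 0.0387 and 0.203 CPM on dox and 0.305 to 0.654 CPM off dox, and none of the 10 tested markers was called by edgeR (1 had an unadjusted p under 0.05, with a lower level). Of these 10, 9 had a log2 fold change below 0 and 1 above, with a median of -0.34. Off-dox tumour 1 had both the highest collagens and the highest FGFR1. Without that tumour the log2 fold change of FGFR1 was -0.82. In the tumours with the lowest fibroblast sum of their group, FGFR1 was at 78.9 CPM (on-dox tumour 1) and 146.8 CPM (off-dox tumour 4). These are single tumours, 1 per group, and the part of host fibroblasts in the FGFR1 difference was not tested. In GENCODE 29, 138 bases of FGFR1 exons overlap the opposite-strand gene LETM2, which had 238 and 241 counts in on-dox tumours against 268 to 305 counts in off-dox tumours, while FGFR1 had 2036 and 1903 against 3227 to 4276 counts.

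**Figure D1:**
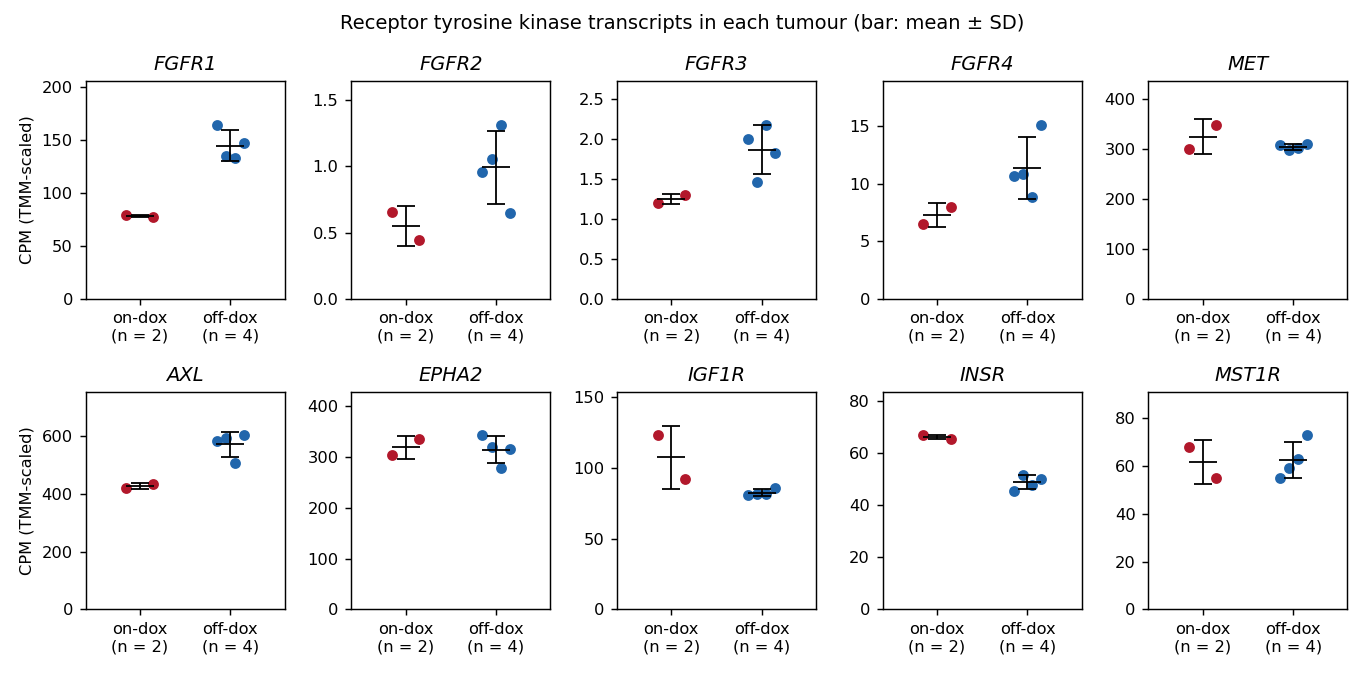
CPM of each receptor (vertical axis from 0, a scale of its own per panel) in the 2 on-dox and 4 off-dox tumours, 1 point per tumour, with the mean and SD as bars. FGFR1 has both on-dox tumours at 77.1 to 78.9 CPM, below the off-dox minimum of 132.8 CPM, while MET, EPHA2 and MST1R overlap.

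The other FGF receptors were scarce and none was called. FGFR4, a receptor typical of liver and some epithelia that binds FGF19 with the co-receptor KLB, was at 6.51 and 7.98 CPM in on-dox tumours, against 10.7, 10.8, 8.81 and 15.1 CPM in off-dox tumours. The groups did not overlap, but the off-dox tumours spread widely, with tumour 4 the highest. Its log2 fold change was -0.65 (SE 0.22, adjusted p = 0.212 by edgeR's quasi-likelihood test), and -0.48 without off-dox tumour 4. That tumour also held the most skeletal muscle transcripts, with a summed level of 9 markers of 850.2 CPM, against 4.11 and 17.9 CPM in the on-dox tumours and 2.15 to 86.2 CPM in off-dox tumours 1 to 3. The part of muscle in the FGFR4 level was not tested. FGFR3, which restrains growth of cartilage and is altered in bladder cancer, was at 1.2 and 1.3 CPM in on-dox tumours against 1.46 to 2.18 CPM in off-dox tumours, on 31 and 32 against 36 to 53 counts. The groups lay apart by a few counts, and the log2 fold change was -0.58 (SE 0.31, adjusted p = 0.436). FGFR2, an epithelial FGF receptor in its IIIb form, was at 0.659 and 0.446 CPM in on-dox tumours against 0.649 to 1.32 CPM in off-dox tumours. With 11 to 32 counts per tumour the groups overlapped, and the log2 fold change was -0.84 (SE 0.44, adjusted p = 0.422). The estimates of FGFR2, FGFR3 and FGFR4 were below 0, as for FGFR1, but with larger SEs. That of FGFR2 was near the FGFR1 estimate, and those of FGFR3 and FGFR4 were smaller in size. The 95% intervals of FGFR2 (-1.806 to 0.127) and FGFR3 (-1.265 to 0.105) spanned 0. The counts are per gene, so the IIIb and IIIc forms of these receptors cannot be told apart.

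Per length, FGFR1 made up most of the FGF receptor transcripts in every tumour. With CPM divided by the length of all annotated exons, the 4 FGF receptors summed to 7.38 and 7.55 CPM per kb in on-dox tumours against 14.6, 12.4, 12.0 and 14.2 CPM per kb in off-dox tumours. Within the sum, FGFR1 held 77.2% and 73.8% in on-dox tumours 1 and 2, against 74.7% to 81.2% in off-dox tumours. FGFR4 held 18.3% and 21.9% in on-dox tumours against 15.1% to 22.1% in off-dox tumours, FGFR3 held 3.36% and 3.54% against 2.43% to 3.74%, and FGFR2 held 1.18% and 0.779% against 0.602% to 1.44%. These ranges overlap for each of the 4 receptors, and the shares were not tested. The summed level was lower on dox, and since FGFR1 made up most of it, this largely restates the FGFR1 level. The shares depend on the length used: with the longest annotated transcript in place of all exons, FGFR1 held 82.2% ± 1.93 on dox and 84.5% ± 2.28 off dox (SD, n = 2 and n = 4).

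**Figure D2:**
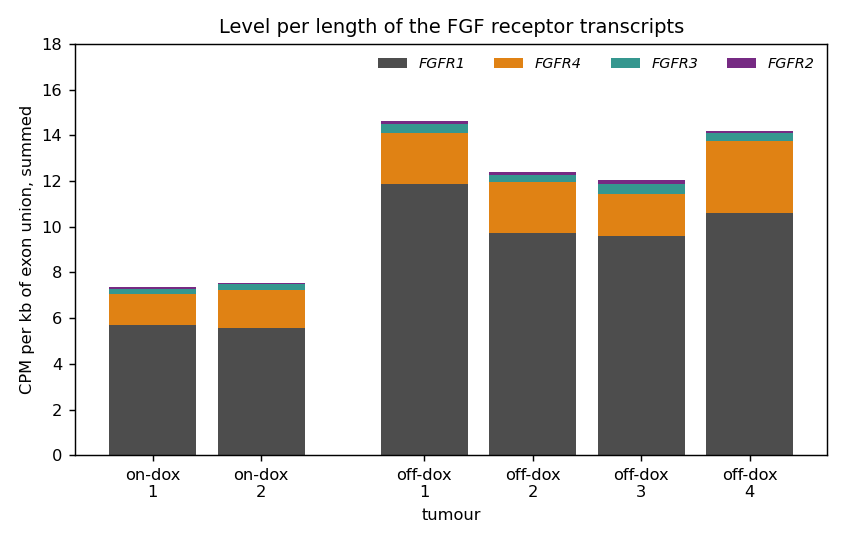
Stacked bars of CPM per kb of annotated exon for the FGF receptors in each tumour, on-dox tumours on the left. The bars reach 7.38 and 7.55 on dox and 12.0 to 14.6 off dox, with FGFR1 the main part of each.

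IGF1R and INSR, a pair of related receptors that bind insulin-like growth factors and insulin and can join into hybrid receptors, were both higher in level on dox without passing the threshold. INSR (ENSG00000171105) was at 67 and 65.7 CPM in on-dox tumours 1 and 2, against 45.5, 51.6, 48.0 and 50.3 CPM in off-dox tumours. Both groups were tight and apart. Its log2 fold change was 0.44 (SE 0.094, 95% interval 0.23 to 0.65) with an adjusted p of 0.0576 by edgeR's quasi-likelihood test. DESeq2, robust fitting and the 2 other low-count filters called it (adjusted p from 0.0119 to 0.0498). DESeq2 size factors, upper quartile scaling and limma voom did not (0.0546 to 0.0688). None of the fits without an off-dox tumour called it (0.0943 to 0.159 by edgeR). Without on-dox tumour 1 the log2 fold change was 0.43, and without on-dox tumour 2 it was 0.45. IGF1R (ENSG00000140443) was at 122.9 CPM in on-dox tumour 1 and 91.8 CPM in on-dox tumour 2, against 80.7, 81.4, 81.6 and 86.0 CPM in off-dox tumours. On-dox tumour 1 was far above all others, and on-dox tumour 2 only just above off-dox tumour 4. The log2 fold change was 0.38 (SE 0.11, adjusted p = 0.156 by edgeR's quasi-likelihood test), and it moved with 1 library. Without on-dox tumour 2 it was 0.57 and called (adjusted p = 0.0207 by edgeR), and dropping on-dox tumour 1 instead gave 0.16 (adjusted p = 0.538). On-dox tumour 1 is also the tumour with the high shares of mitochondrial mRNAs and nuclear RNAs given above, whose part in this value was not tested. Per length, IGF1R stood at 1.38 and 1.05 times INSR in on-dox tumours, against 1.18 to 1.33 times in off-dox tumours.

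The promoter windows of IGF1R and INSR are shown because these related receptors both had higher levels on dox. Each is the 250 bases before the RefSeq transcription start on GRCh38.p14, 5′ to 3′ on the gene's strand, with GGGCGG, the core of the GC box bound by SP-family factors, in capitals. IGF1R lies on the plus strand at chr15:98648289-98648538 and INSR on the minus strand at chr19:7294415-7294664.
IGF1R: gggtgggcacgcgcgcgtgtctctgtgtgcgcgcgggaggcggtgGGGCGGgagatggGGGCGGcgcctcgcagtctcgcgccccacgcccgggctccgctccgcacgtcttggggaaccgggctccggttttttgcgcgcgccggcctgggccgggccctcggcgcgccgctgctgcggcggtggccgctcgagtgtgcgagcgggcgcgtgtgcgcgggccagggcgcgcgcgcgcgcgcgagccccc
INSR: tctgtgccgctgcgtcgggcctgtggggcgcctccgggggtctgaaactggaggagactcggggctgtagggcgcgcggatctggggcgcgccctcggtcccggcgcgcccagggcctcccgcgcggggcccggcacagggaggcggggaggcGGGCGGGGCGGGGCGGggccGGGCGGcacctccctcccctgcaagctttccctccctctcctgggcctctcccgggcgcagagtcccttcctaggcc
GGGCGG was found 2 times in the IGF1R window and 4 times in the INSR window, where 3 of the matches share their end bases, and its reverse complement was found 0 times in either. Of 35116 promoter windows of this length in the RefSeq table, 42.6% hold the motif on either strand. The windows have 81.2% and 78.4% G and C, against a median of 58% over all windows. The matches describe the letters only, since no binding was measured.

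AXL (ENSG00000167601), the GAS6 receptor of the TAM family that marks mesenchymal-like carcinoma cells and is also present on macrophages, was the most abundant of the 10 per length. It was at 419 and 433 CPM in on-dox tumours, against 581, 592, 506 and 602 CPM in off-dox tumours. The groups did not overlap, and off-dox tumour 3 was nearest to the on-dox tumours. The log2 fold change was -0.42 (SE 0.11, adjusted p = 0.101 by edgeR's quasi-likelihood test). Without any 1 tumour it was -0.48 to -0.39 and not called, while DESeq2 called it (adjusted p = 0.0117). The summed level of 8 myeloid markers was 29.5 and 33.6 CPM in on-dox tumours, within the off-dox range of 17.8 to 37.1 CPM, and CD68, TYROBP and FCER1G did not pass the low-count filter. All 5 tested markers had a log2 fold change above 0 (median 0.60), and none was called by edgeR (1 had an unadjusted p under 0.05). The part of host myeloid cells in the AXL level was not tested.

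MET, EPHA2 and MST1R overlapped between the groups. MET (ENSG00000105976) was at 299.96 and 349 CPM in on-dox tumours, against 307, 298, 302 and 311 CPM in off-dox tumours, with a log2 fold change of 0.092 (95% interval -0.12 to 0.31; adjusted p = 0.728 by edgeR's quasi-likelihood test). On-dox tumour 1 lay within the tight off-dox group and on-dox tumour 2 above it. EPHA2 (ENSG00000142627) was at 303 and 335 CPM in on-dox tumours, against 343, 319, 279 and 317 CPM in off-dox tumours, with a log2 fold change of 0.022 (95% interval -0.22 to 0.26; adjusted p = 0.953). MST1R (ENSG00000164078) was at 68.1 and 55.1 CPM in on-dox tumours, against 55.2, 59.1, 62.9 and 72.9 CPM in off-dox tumours, with a log2 fold change of -0.022 (95% interval -0.31 to 0.27; adjusted p = 0.959). Each of these intervals spans 0, so neither no change nor the other values within it can be excluded with these tumours.

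**Figure D3:**
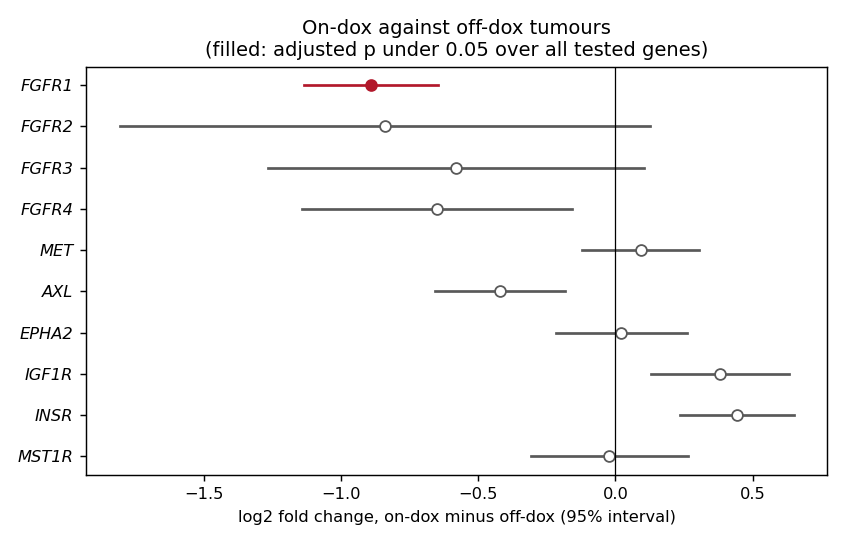
Log2 fold change of each receptor, on-dox minus off-dox, as a point with its 95% interval, filled where the adjusted p over all tested genes was under 0.05. FGFR1 at -0.89 is the filled point, and the intervals of FGFR2, FGFR3, MET, EPHA2 and MST1R span 0.

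Across the receptor tyrosine kinase family of 58 genes, the 10 receptors held most of the level per length. Summed as CPM per kb of annotated exon, they made up 67.1% and 67.7% of the family in on-dox tumours, against 70.2% to 71.8% in off-dox tumours. AXL led in both groups with 82.7 ± 1.94 CPM per kb on dox and 110.6 ± 8.49 CPM per kb off dox (SD, n = 2 and n = 4), followed by EPHA2 at 76.7 ± 5.34 on dox and 75.6 ± 6.39 off dox, and MET at 46.1 ± 4.94 on dox and 43.3 ± 0.808 off dox. EGFR, which is not among the 10, had rank 4 with 41.2 ± 2.74 CPM per kb on dox and 31.97 ± 2.35 CPM per kb off dox. MST1R ranked 7 in both groups, at 11.7 ± 1.75 CPM per kb on dox and 11.9 ± 1.45 CPM per kb off dox. Off dox, FGFR1 came next at 10.45 ± 1.06 CPM per kb, and the ranges of MST1R and FGFR1 overlapped. On dox FGFR1 was at 5.63 ± 0.091 CPM per kb and ranked 12 of 58, below IGF1R at rank 9 and INSR at rank 10, both of which it exceeded off dox. FGFR4, FGFR3 and FGFR2 closed the order at ranks 19, 25 and 37 on dox and 17, 25 and 32 off dox. Apart from MST1R and FGFR1 off dox, no neighbours in this order among the 10 had overlapping ranges in either group.

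These orders depend on the length used for each gene, and most for FGFR1. Its annotated exons span 13842 bases in all, against 6216 bases for its longest transcript, whereas for AXL the lengths are 5154 and 4737 bases. With the longest transcript, FGFR1 was at 12.55 CPM per kb and rank 9 on dox, and at 23.3 CPM per kb and rank 6 off dox, above MST1R at 13.35 CPM per kb off dox. With that length FGFR1 stood above IGF1R and INSR in both groups, so its place below them on dox holds only for the exon length: on dox IGF1R was then at 8.77 CPM per kb and INSR at 7.41 CPM per kb, and off dox at 6.74 and 5.46 CPM per kb. EGFR then passed MET on dox, with 52.6 against 48.9 CPM per kb, but not off dox, with 40.8 against 45.9 CPM per kb. AXL and EPHA2 kept ranks 1 and 2 in both groups with either length.

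**Figure D4:**
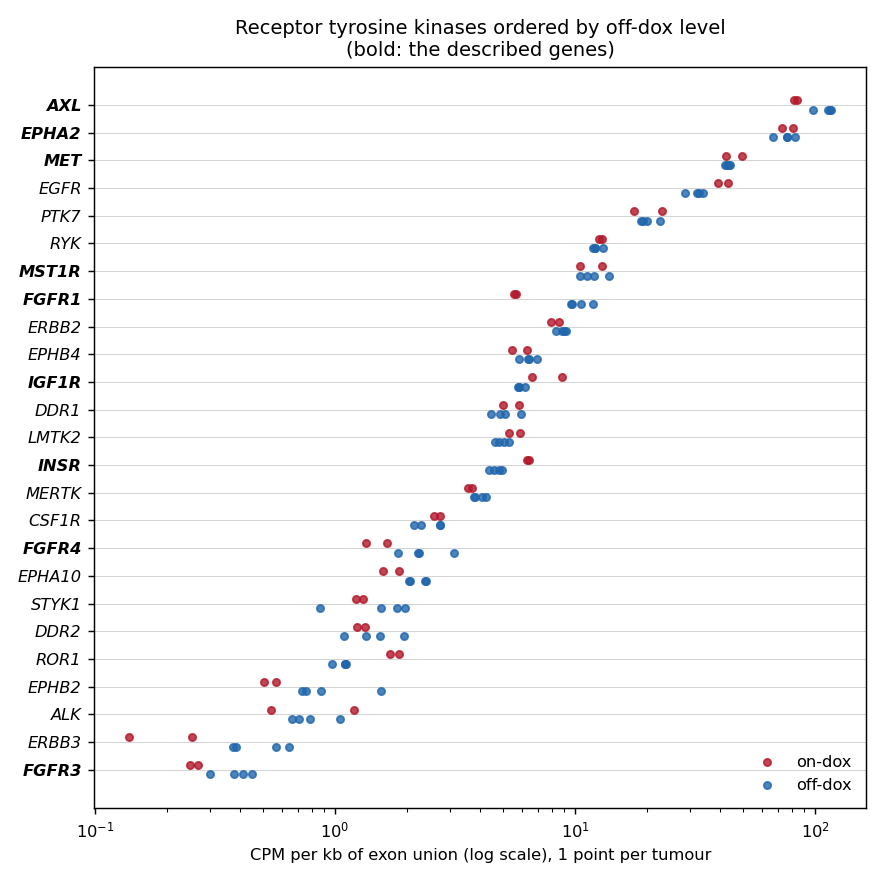
Level per length (CPM per kb of annotated exon, log scale) of the 25 most abundant receptor tyrosine kinases off dox, 1 point per tumour, on-dox points above off-dox points for each gene, the described receptors in bold. On this exon length AXL, EPHA2 and MET lead in both groups (with the longest transcript EGFR passes MET on dox), and the on-dox points of FGFR1 at 5.57 and 5.70 lie left of its off-dox points at 9.60 to 11.9.

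Of the 48 other receptor tyrosine kinases, 32 were tested and none was called by edgeR. An unadjusted p under 0.05 was reached by 2 with a higher and 6 with a lower level. The exact share over all genes is not given, and the ranks of FGFR4 and FGFR2 above bound it. DESeq2 called 2 higher and 1 lower, beside 303 and 416 over all tested genes. By limma voom 0 were called, beside 94 higher and 90 lower over all tested genes. Their median log2 fold change was -0.13. The receptors with the smallest p were ROR1, a WNT5A receptor, at 11.9 ± 0.683 CPM on dox and 7.18 ± 0.452 CPM off dox (log2 fold change 0.73, adjusted p = 0.0576), ERBB3, the ligand-binding partner of ERBB2, at 1.77 ± 0.728 CPM on dox and 4.46 ± 1.19 CPM off dox (-1.33, adjusted p = 0.107), EGFR (0.37, adjusted p = 0.139), and the ephrin-B receptor EPHB2 at 6.74 ± 0.549 CPM on dox and 12.3 ± 4.9 CPM off dox (-0.86, adjusted p = 0.219; SD, n = 2 and n = 4 for each, edgeR's quasi-likelihood test).

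Of 22 FGF family genes, listed here as FGF ligands, 7 were tested and 1 rose. FGF2, basic FGF, a ligand of FGFR1 in particular, was at 51.0 and 66.7 CPM in on-dox tumours, against 32.4, 41.1, 38.9 and 37.2 CPM in off-dox tumours. The groups did not overlap, and the log2 fold change was 0.65 (SE 0.13, adjusted p = 0.0487 by edgeR's quasi-likelihood test). The call stood in 1 of the 6 fits that left a tumour out. That fit dropped on-dox tumour 1 (log2 fold change 0.84, adjusted p = 0.0387 by edgeR), while dropping on-dox tumour 2 gave 0.44. The opposite-strand gene NUDT6 shares 804 exon bases with FGF2 and had 111 and 99 counts on dox against 89 to 130 counts off dox. FGF1, which binds all FGF receptors, was at 11.5 and 13.0 CPM on dox against 14.96 to 20.6 CPM off dox (log2 fold change -0.51, adjusted p = 0.175), and FGF5 at 1.39 and 0.851 CPM on dox against 2.02 to 4.66 CPM off dox (-1.32, adjusted p = 0.187). FGF13 and FGF14, intracellular family members that do not act as receptor ligands, had adjusted p of 0.805 and 0.691. FGF19, the ligand of FGFR4 with KLB, did not pass the filter, at a mean of 0.0203 CPM on dox and 0.0192 CPM off dox. FGF7 was at -0.11 and FGF18 at 0.21 on the log2 scale, and neither was called. The median log2 fold change of the 7 was -0.36. This is the value of FGF14, so it does not describe the receptor ligands alone.

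Of 23 co-receptor and heparan sulfate genes, 19 were tested and none was called by edgeR, DESeq2 or limma voom. An unadjusted p under 0.05, a cut whose exact share over all genes is not given, was reached by 3, all with a lower level. These were SULF1, an extracellular 6-O-sulfatase that trims heparan sulfate (0.349 and 0.608 CPM on dox against 0.916 to 2.27 CPM off dox, log2 fold change -1.67, adjusted p = 0.135), the glypican GPC3 (-0.99, adjusted p = 0.305) and the FGF carrier FGFBP1 (-0.90, adjusted p = 0.338 by edgeR's quasi-likelihood test). The glypican GPC1 came next (-0.33, adjusted p = 0.426). KLB was at 7.57 ± 0.909 CPM on dox and 7.9 ± 0.566 CPM off dox (SD, n = 2 and n = 4). The median log2 fold change of the 19 was -0.054.

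Among 12 ligand genes of the other receptors, 9 were tested and 1 rose. EFNA5, an ephrin-A ligand of EPH receptors, was at 31.4 and 26.0 CPM in on-dox tumours, against 15.9, 15.4, 20.6 and 17.8 CPM in off-dox tumours. The groups lay apart, and the log2 fold change was 0.72 (SE 0.15, adjusted p = 0.0478 by edgeR's quasi-likelihood test), called in 1 of 6 fits without a tumour. EFNA3 was at 0.349 and 0.648 CPM on dox against 1.11 to 2.31 CPM off dox (log2 fold change -1.64, adjusted p = 0.135). EFNA1, the ephrin most often paired with EPHA2, was at 28.2 and 37.7 CPM on dox against 23.1 to 27.3 CPM off dox (0.38, adjusted p = 0.24). The AXL ligand GAS6 was at 32.9 and 48.3 CPM on dox against 45.0 to 64.1 CPM off dox (-0.40, adjusted p = 0.323). HGF, the MET ligand that mesenchymal cells make, was at 1.47 and 2.75 CPM on dox against 0.308 to 1.6 CPM off dox (0.85, adjusted p = 0.503). The median log2 fold change of the 9 was -0.084.

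Of 16 genes of ligand binding proteins, activating proteases and their inhibitors, 14 were tested and 1 fell. IGFBP6, a binding protein with a preference for IGF2, was at 11.4 and 12.5 CPM in on-dox tumours, against 26.0, 26.9, 29.02 and 17.9 CPM in off-dox tumours. Off-dox tumour 4 lay between the on-dox tumours and the other off-dox tumours, and the log2 fold change was -1.06 (SE 0.19, adjusted p = 0.033 by edgeR's quasi-likelihood test; called in 2 of 6 fits without a tumour). The log2 fold change of IGFBP3, the main IGF carrier of serum, was -0.86 (adjusted p = 0.115), that of IGFBP2 -1.12 (adjusted p = 0.155), and that of SPINT1, an inhibitor of the proteases that activate HGF, 0.64 (adjusted p = 0.433). IGF2R, which clears IGF2 and carries lysosomal enzymes, was at 492 and 430 CPM on dox against 293 to 389 CPM off dox (0.41, adjusted p = 0.154). The median log2 fold change of the 14 was 0.041.

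Of 30 adaptors and regulators, 27 were tested and 1 fell. GRB14, an adaptor that binds the insulin receptor and inhibits its kinase, was at 0.581 and 0.284 CPM in on-dox tumours, against 2.62, 1.38, 1.94 and 2.52 CPM in off-dox tumours. All values were low but apart, and the log2 fold change was -2.27 (SE 0.44, adjusted p = 0.0438 by edgeR's quasi-likelihood test; called in none of the 6 fits without a tumour, adjusted p from 0.0577 to 0.0954). FRS2, the adaptor of the FGF receptors, was at 70.0 and 67.8 CPM on dox against 45.2 to 54.7 CPM off dox (0.45, adjusted p = 0.068). For IRS1, the docking protein of INSR and IGF1R, it was -0.58 (adjusted p = 0.103), for the ubiquitin ligase CBL 0.44 (adjusted p = 0.109) and for the adaptor SHC1 0.41 (adjusted p = 0.12). The median log2 fold change of the 27 was 0.091.

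All 14 genes that FGF and ERK signals induce or that feed back on them were tested, and 1 fell. ETV1, an ETS transcription factor, was at 4.88 and 3.97 CPM in on-dox tumours, against 15.7, 9.04, 9.26 and 10.1 CPM in off-dox tumours. The groups did not overlap, with off-dox tumour 1 the highest, and the log2 fold change was -1.32 (SE 0.26, adjusted p = 0.0439 by edgeR's quasi-likelihood test; called in none of the 6 fits without a tumour, adjusted p from 0.0579 to 0.127). The ERK phosphatase gene DUSP5 was at 170.0 and 195 CPM on dox against 101 to 135 CPM off dox (0.59, adjusted p = 0.0508). The inhibitors SPRED2 and SPRY3 and the phosphatase DUSP4 followed, with estimates of 0.32, 0.59 and 0.36 on the log2 scale (adjusted p from 0.292 to 0.319 by edgeR). DUSP6, a usual readout of FGF receptor signalling, was at 109.2 and 90.8 CPM in on-dox tumours against 82.3 to 113.6 CPM in off-dox tumours, a difference of 0.093 on the log2 scale (adjusted p = 0.809 by edgeR's quasi-likelihood test). It was named after its value was seen. The median of the 14 was -0.011.

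**Figure D5:**
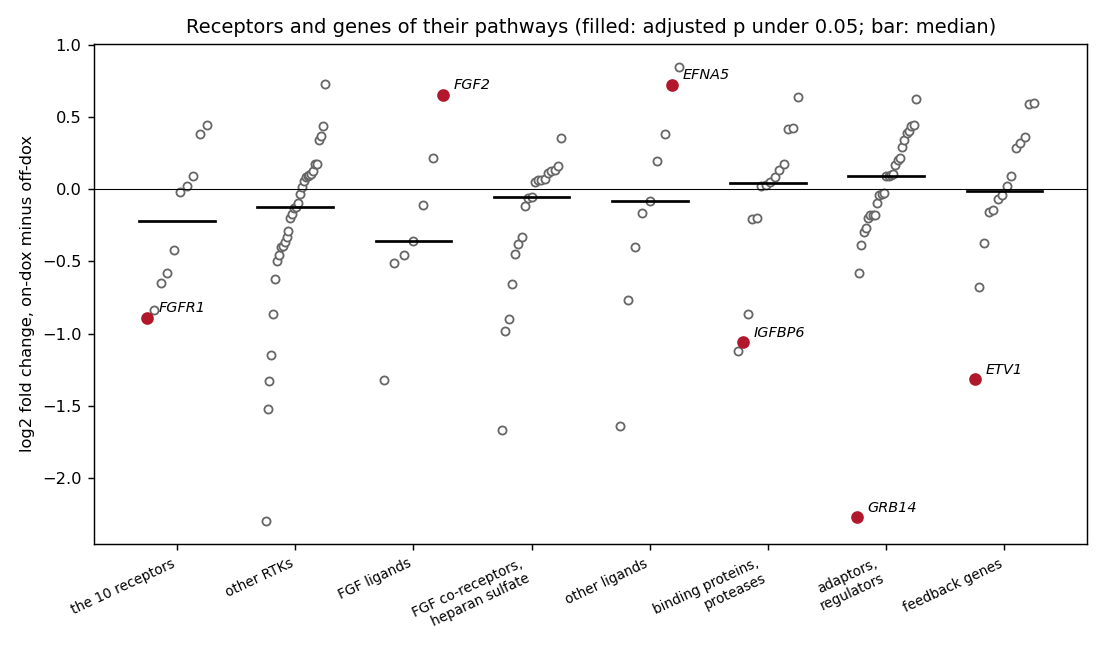
Log2 fold change, on-dox minus off-dox, of every tested gene of the receptors and of their pathway lists, with a bar at each median and filled, named points where the adjusted p over all tested genes was under 0.05. FGFR1, IGFBP6, GRB14 and ETV1 are the filled points below 0, and FGF2 and EFNA5 those above.

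By Pearson correlation of log2 CPM over the 6 tumours, the genes most like FGFR1 among 13602 compared were FAM20A (r = 0.997), PRR5L (r = 0.995) and STX10 (r = 0.994). PRR5L was at 6.82 and 6.16 CPM in on-dox tumours against 12.8 to 15.97 CPM in off-dox tumours. With 6 tumours that share their libraries, 138 genes had an r over 0.95, so this order is a description only.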

How the data were processed

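The authors deposited a table of raw counts for each gene in 6 tumours. The build hg19 and the tools STAR, HTSeq and limma come from the submitters' processing notes, with no roles or versions. Which annotation and strand setting were used, and whether mouse reads were removed, is not given in the labels or headers. Per the labels' protocols, RNA was extracted with Trizol. Of 57798 table lines, 25 with a repeated identifier were dropped, and missing or date-like symbols were named by identifier from a gene name table. The files' symbols found all 10 receptors. Genes kept by filterByExpr (21308) went into edgeR 4.0.16 under R 4.3.3 (TMM scaling, quasi-likelihood F test, Benjamini-Hochberg adjustment over all tested genes, threshold 0.05). The fit was also run on simulated counts with the same dispersion for every gene and no outlying tumour. Unlike the real tumours, these counts can check the code only. SE is the log2 fold change divided by the root of F. Levels per length use exon lengths of GENCODE 29, an annotation on GRCh38, for lengths only. Promoter sequences are from RefSeq; 9 of the 10 receptors had a window. The receptors and lists were chosen with earlier results of these data known. Named genes are the receptors, ME3, list genes called plus up to 4 more with the smallest p, and the 3 genes most correlated with a called receptor. Host and tissue markers are named where their values touch a result. KLB, FGF19 and DUSP6 fall outside the rule and were chosen after their values were seen. Alternatives were other scalings, filters, tools (DESeq2 1.42.0, limma voom 3.58.1), a replicate block and fits without each tumour. Within each group, no pair of tumours was a duplicate. Chi-square per degree of freedom was 8.57 to 19 for pairs of off-dox tumours and 45.7 for the 2 on-dox tumours. Pairs across the groups were not checked.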

Additional observations from a re-analysis of the deposited data

Results flagged for a closer look

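Among the 10 receptors, 1 had an off-dox tumour far from its group. IGF1R was at 86.0 CPM in off-dox tumour 4, while off-dox tumours 1 to 3 lay at 80.7 to 81.6 CPM. About 1 in 20 groups is marked in this way by chance, and 10 groups were looked at.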

How the results depend on the processing

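Replicate numbers name the tumours, and the labels do not say that they pair them. Deviations of same-numbered tumours had correlations of -0.032 and 0.0063. The 2 on-dox tumours deviate from their mean as mirror images, so this check cannot exclude a shared batch or mouse. The replicate block gave 23 genes higher and 30 lower over all genes. With it, FGFR1 was at -0.931 (adjusted p = 0.0851 by edgeR's quasi-likelihood test) and INSR at 0.453 (adjusted p = 0.558 by the same test). In that fit 0 receptors were lower, EPHA2 was at -0.053 and MST1R at 0.101. Over all genes, no low-count filter called 310 higher and 460 lower, DESeq2 303 and 416, and an adjusted p under 0.1 gave 244 and 289. Among the 10 receptors, 1 was higher with no filter, a mean CPM of at least 1, DESeq2, robust fitting or an adjusted p under 0.1, and 2 were lower with no filter or DESeq2. INSR was 0.433 with no filter, 0.439 with a mean CPM of at least 1, 0.443 by DESeq2 and 0.442 with robust fitting, and AXL -0.429 with no filter and -0.419 by DESeq2. FGF ligands had 0 higher with DESeq2 size factors, voom or the block, and ligands of the other receptors 0 higher with upper quartile scaling, a mean CPM of at least 1, voom or the block and 1 lower with no filter. Co-receptors had 1 lower with no filter. Binding proteins and proteases had 1 higher by DESeq2, and 2 lower with no filter, 3 by DESeq2 and 0 by voom or the block. Adaptors had 2 higher with no filter, 3 by DESeq2 and 1 at an adjusted p under 0.1, and 2 lower with no filter or DESeq2 and 0 by voom or the block. Feedback genes had 1 higher with upper quartile scaling, no filter, DESeq2, robust fitting or an adjusted p under 0.1, and 0 lower by voom or the block. Other receptor tyrosine kinases had 1 higher with no filter, robust fitting or an adjusted p under 0.1 and 2 by DESeq2, and 2 lower with no filter and 1 by DESeq2. With the longest transcript and with no length correction, the shares were 82.2% and 89.6% on dox and 84.5% and 91.0% off dox for FGFR1, 1.84% and 1.44% on dox and 1.54% and 1.18% off dox for FGFR3, and 15.2% and 8.33% on dox and 13.2% and 7.15% off dox for FGFR4, and with no length correction 0.634% on dox and 0.639% off dox for FGFR2. Fits that left out 1 tumour called 39 (without on-dox tumour 1) to 231 (without on-dox tumour 2) genes higher and 33 to 331 lower in the same fits, 0 to 1 receptors higher, and 0 to 1 genes per list and direction. They gave -0.026 (without on-dox tumour 2) to 0.199 for MET, -0.055 to 0.093 for EPHA2 (below 0 without on-dox tumour 2 and, at -0.032, without off-dox tumour 3), -0.181 to 0.119 for MST1R (above 0 without on-dox tumour 2 and, at 0.061, without off-dox tumour 4) and 0.157 to 0.572 for IGF1R. The cause of these changes was not tested.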
